A study of Mus musculus with 10 samples.

Results

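Mitochondrial ribosomal proteins were represented by 78 genes of the 20196 in the table. They were taken as every symbol that begins with Mrpl or Mrps followed by a digit, leaving out pseudogenes, whose 4 group values averaged 3 or more. All 78 symbols of that form passed, and the means of the members ran from 8.83 for Mrpl47 upward, so that none lay near the threshold. The symbols comprise 49 Mrpl and 29 Mrps genes, of which 51 belong to the large and 26 to the small subunit, Mrps30 and Mrps18a being placed in the large one. The last, Mrps36, was counted with neither because its product is a component of the 2-oxoglutarate dehydrogenase complex. The groups were ELS+FST, early life stress (ELS) followed by a forced swim in adulthood, FST, a forced swim without ELS, ELS, early life stress without a swim, and Control, without either stress. All mice were male C57BL/6. ELS lasted from postnatal day 2 to 12, weaning was at day 21, and at 70 to 90 days of age the FST and ELS+FST mice swam for 6 min (water of 25°C, 2 L) and recovered for 1 h before tissue was taken. The RNA was obtained by translating ribosome affinity purification (TRAP), in which an EGFP-tagged ribosomal protein driven by the Gprin3 promoter is pulled down with its mRNA, so that mainly CA3 pyramidal neurons of the hippocampus are sampled. The labels give the genotype as wild type, while the study's methods describe this transgenic line in every group. Each library pooled 5 to 6 mice. The labels list 3 libraries for ELS+FST, 2 for FST, 3 for ELS and 2 for Control, where the methods state 3 per group.

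The mitochondrial ribosome translates the few mRNAs of the mitochondrial genome, all of which encode subunits of the respiratory chain and of ATP synthase. Its rRNAs are made inside the organelle, whereas all of its proteins are encoded in the nucleus, translated on cytoplasmic ribosomes and imported. Many have a counterpart in the bacterial ribosome and the rest were gained in the mitochondrial lineage. CA3 neurons fire in bursts and depend on oxidative phosphorylation, so the supply of these proteins bears on their energy metabolism. In TRAP data a gene's value follows the amount of its mRNA on tagged cytoplasmic ribosomes, and fewer cells of a type cannot be told apart from less RNA per cell.

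The values were group values of the regularized logarithm (rlog), a log2 scale on which a difference of 0.25 was the size used for counts and on which differences of genes with few reads are shrunk. One value per gene and group was given, so no spread between libraries, no n and no test stand behind any difference. The methods give an approximate range of sequencing depth, but the depth of each library is unknown. The words "higher" and "lower" describe the 4 values only. The rlog is not divided by gene length, and levels of different genes are therefore not compared. Members are set beside all 14986 genes whose group values averaged 3 or more. The 10 immediate early genes used to check the swim were all higher in FST than in Control (median difference 0.69) and all higher in ELS+FST than in ELS (0.77). The study had already listed all 10 as raised by the swim in ELS mice from these data, so this is not independent evidence. The 9 CA3 markers were present in every group, with a median of 8.70 in ELS+FST, 8.73 in FST, 8.77 in ELS and 9.22 in Control, and all 9 were lower in each stress group than in Control. Microglial markers had a median difference of 0.35 for FST against Control and 0.38 for ELS against Control, and 8 astrocyte and 9 oligodendrocyte markers were all higher in ELS+FST than in ELS (medians 0.50 and 0.45). All 6 dentate granule markers were lower in FST and in ELS than in Control (medians -0.42 and -0.40) and higher in ELS+FST than in ELS (0.37), as were the 6 interneuron (0.30) and 5 CA1 markers (0.18) in that last comparison. The part of cell composition in the differences of the members was not tested.

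Early life stress without a swim was accompanied by higher values of most mitochondrial ribosomal protein genes. Relative to genes of like coding length, however, 34 of 78 were higher (median -0.01). In ELS against Control, 64 of the 78 members were higher (82.1%), where 48.5% of all genes were, and the median difference was 0.12, a linear ratio of 1.09, beside -0.01 for all genes. Differences over 0.25 were found for 13 members in the higher direction and for none in the lower one, where 11.7% and 11.9% of all genes passed that size. The highest were Mrpl52 (0.37), Mrps21 (0.37), Mrps36 (0.36), Mrps25 (0.35) and Mrpl34 (0.34). The lowest were Mrpl3 (-0.24), Mrpl1 (-0.13), Mrps27 (-0.12), Mrps5 (-0.09) and Mrpl9 (-0.07).

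The swim in mice without ELS gave a similar picture. In FST against Control 61 of 78 members were higher (78.2%), against 48.3% of all genes, with a median of 0.09, a linear ratio of 1.07. Relative to genes of like coding length 33 were higher (median -0.02). Over 0.25 higher were 7 members and over 0.25 lower was Mrps27, where 11.4% and 12.3% of all genes were past that size. Mrpl34 (0.38), Mrpl52 (0.38), Mrps21 (0.33), Mrps25 (0.32) and Mrps36 (0.31) led the order, and Mrps27 (-0.30), Mrpl3 (-0.22), Mrpl1 (-0.19), Mrpl46 (-0.16) and Mrps30 (-0.14) closed it. Both comparisons use the same Control values, so the recurrence of these names is not a second observation. In the plot of the differences of all members, the black bar lies above 0 in the 3 comparisons with Control and below 0 in both comparisons of ELS+FST with a single stress.

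**Figure D1:**
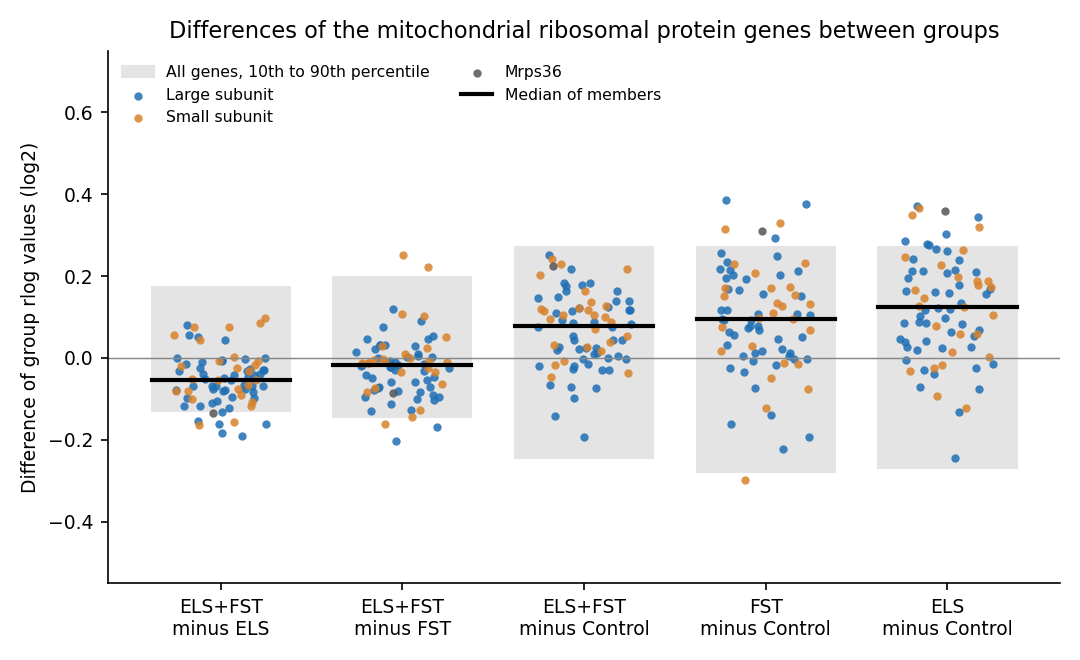
Difference of group rlog values (log2, vertical axis) for the 78 members in 5 comparisons (horizontal axis). Blue points are large subunit genes, orange points small subunit genes and the grey point Mrps36, the black bar is the median of the members and the grey box the 10th to 90th percentile of 14986 genes. Medians are -0.05 for ELS+FST minus ELS, -0.02 for ELS+FST minus FST, 0.08 for ELS+FST minus Control, 0.09 for FST minus Control and 0.12 for ELS minus Control, and between 68 and 78 of the points lie inside each grey box.

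Values of single members show how the 4 groups were placed. Mrpl34, the counterpart of bacterial L34, had 9.28 in ELS+FST, 9.48 in FST, 9.44 in ELS and 9.09 in Control. All 3 stress groups were above Control, with ELS+FST the nearest to it. Mrpl52, a large subunit protein without a bacterial counterpart, had 9.45 in ELS+FST, 9.57 in FST, 9.57 in ELS and 9.20 in Control. Mrps21, the counterpart of bacterial S21, had 10.18 in ELS+FST, 10.30 in FST, 10.34 in ELS and 9.97 in Control. The order was the same for Mrps25, a small subunit protein specific to mitochondria, with 11.96 in ELS+FST, 12.03 in FST, 12.07 in ELS and 11.72 in Control. Mrps36 had 9.79 in ELS+FST, 9.88 in FST, 9.93 in ELS and 9.57 in Control.

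A smaller number of members stood lower in the stress groups. Mrps27, a pentatricopeptide repeat protein of the small subunit, had 9.95 in ELS+FST, 9.70 in FST, 9.88 in ELS and 9.999 in Control, so that FST alone stood apart. Mrpl3, whose bacterial counterpart lies close to the peptidyl transferase centre, had 10.76 in ELS+FST, 10.73 in FST, 10.71 in ELS and 10.95 in Control. For Mrpl1, the counterpart of the bacterial protein of the L1 stalk, the values were 9.24 in ELS+FST, 9.19 in FST, 9.25 in ELS and 9.38 in Control. In both genes the 3 stress groups lay close together and below Control. Mrpl46 had 10.05 in ELS+FST, 9.96 in FST, 10.05 in ELS and 10.12 in Control, and Mrps30, a large subunit protein in spite of its name, had 9.52 in ELS+FST, 9.45 in FST, 9.55 in ELS and 9.59 in Control.

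**Figure D2:**
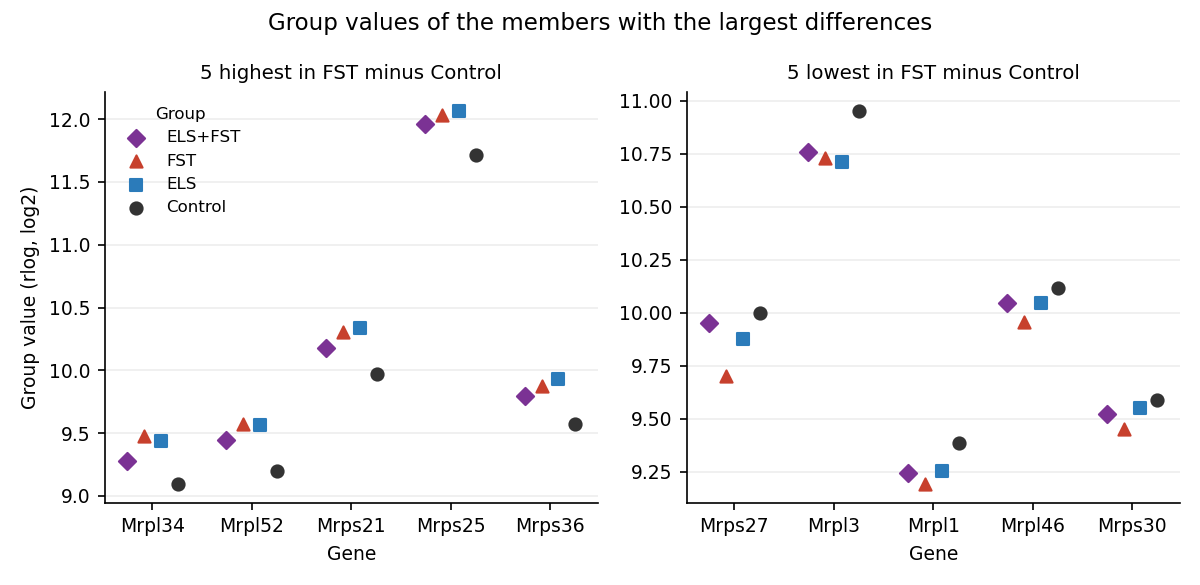
Group rlog values (log2, vertical axis, different scales in both panels) of the 5 members with the highest (left) and the 5 with the lowest (right) FST minus Control difference. Purple diamonds are ELS+FST, red triangles FST, blue squares ELS and black circles Control, 1 value per group. Control is the lowest point for all 5 genes on the left and the highest for all 5 on the right, where Mrps27 has FST at 9.70 apart from the other 3 groups.

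The bases before the start of the genes at both ends of these orders are shown because they belong to the members that differed most, and to see what their promoters hold in common. Each is the RefSeq window in the GRCm38.p6 build, of 250 bases up to the base before the transcript start, 5′ to 3′ on the strand of the gene. Capitals mark the CCGGAAG core that ETS factors such as GABP bind and the AAGATGG core of YY1, read on either strand. Mrpl34 lies at chr8:71464676-71464925, plus strand.
Mrpl34: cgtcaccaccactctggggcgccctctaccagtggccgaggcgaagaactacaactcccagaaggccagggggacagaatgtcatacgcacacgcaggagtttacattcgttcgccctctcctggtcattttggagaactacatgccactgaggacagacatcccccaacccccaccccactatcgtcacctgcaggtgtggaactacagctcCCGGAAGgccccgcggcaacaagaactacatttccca
Mrpl52 is at chr14:54426659-54426908, plus strand.
Mrpl52: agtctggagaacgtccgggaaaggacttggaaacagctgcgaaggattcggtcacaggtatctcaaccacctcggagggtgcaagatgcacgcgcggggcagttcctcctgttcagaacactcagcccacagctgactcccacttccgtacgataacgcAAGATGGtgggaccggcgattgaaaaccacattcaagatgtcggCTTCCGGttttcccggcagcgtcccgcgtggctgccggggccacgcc
Mrps27 is at chr13:99344536-99344785, plus strand.
Mrps27: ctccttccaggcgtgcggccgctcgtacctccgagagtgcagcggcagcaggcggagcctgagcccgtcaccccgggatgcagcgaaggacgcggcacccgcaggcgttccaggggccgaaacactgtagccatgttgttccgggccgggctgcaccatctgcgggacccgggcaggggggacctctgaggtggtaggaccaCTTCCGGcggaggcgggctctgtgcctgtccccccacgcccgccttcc
Mrpl3 is at chr9:105053018-105053267, plus strand.
Mrpl3: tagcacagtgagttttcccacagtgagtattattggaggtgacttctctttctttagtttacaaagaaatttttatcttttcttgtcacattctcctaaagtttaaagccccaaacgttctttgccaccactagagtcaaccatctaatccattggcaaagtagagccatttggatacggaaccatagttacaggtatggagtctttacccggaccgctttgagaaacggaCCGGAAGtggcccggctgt
The ETS core was present before the start of all 4 genes, those with the highest and those with the lowest differences alike, beginning at -37 in Mrpl34, -47 in Mrpl52, -48 in Mrps27 and -19 in Mrpl3, counted from the transcript start on the gene's strand. Mrpl52 also held the YY1 core, at -91.

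Promoters of these genes are known for binding sites of GABP, NRF1 and YY1, factors that many nuclear genes of mitochondrial function share. A RefSeq window of 300 bases, 250 before and 50 after the start, was found for 69 of the 78 members and for 27025 genes in all. The ETS core CCGGAAG was in the windows of 26 of 69 members (37.7%), against 17.9% of the 11559 genes that passed the same filter and had a window and 9.93% of the whole table. The YY1 core AAGATGG was in 13 members (18.8%, against 7.92% and 7.28%), and the NRF1 core GCATGCGC in 8 (11.6%, against 5.56% and 3.05%). The SP1 core GGGCGG was in 34 (49.3%), below the 66.9% of expressed genes and above the 38.2% of the table. Both strands were searched and 17 members held none of the 4. Members with the ETS core had a median difference of 0.12 for FST against Control and 0.15 for ELS against Control, and those without it 0.08 and 0.12, but their coding sequences were also shorter (medians 502.5 and 603 bases). For the NRF1 core the order was the opposite, with 0.03 and 0.08 in the 8 members that held it and 0.10 and 0.16 in the others. Here the coding sequences of the 8 were the longer ones (medians 690 and 564 bases). With the YY1 core the medians were 0.15 and 0.15, and without it 0.09 and 0.12 (561 and 601.5 bases). With the SP1 core they were 0.11 and 0.15, and without it 0.08 and 0.12 (522 and 603 bases). These are matches of letters and not binding sites.

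Before any subtraction both subunits showed the same directions. Of the 51 large subunit genes 42 were higher in ELS than in Control (median 0.12) and 40 in FST than in Control (0.08). Of the 26 small subunit genes 21 and 20 were (0.14 and 0.12), where 48.5% and 48.3% of all genes were. Relative to genes of like coding length 20 of the 51 were higher in ELS and 20 in FST, and of the 26 small subunit genes 13 and 12. The 45 members with a bacterial counterpart had medians of 0.13 for ELS and 0.12 for FST against Control, and the 31 without one 0.10 and 0.09. Their median coding lengths were 573 and 618 bases. Relative to genes of like coding length the order reversed, with -0.023 and -0.027 for the 45 and -0.008 and -0.023 for the 31. Mrps36 and Mrpl55 were put in neither class. In the stalk that recruits translation factors, Mrpl12 had 11.40 in ELS+FST, 11.47 in FST, 11.43 in ELS and 11.26 in Control. Mrpl53 and Mrpl54 had differences of 0.30 and 0.27 for ELS against Control and of 0.25 and 0.22 for FST against Control. Mrpl10 and Mrpl11, which anchor the stalk, had -0.03 and 0.12 for ELS and -0.003 and 0.02 for FST, so the parts of the stalk differed from each other in size. The coding sequences of Mrpl10 and Mrpl11 (786 and 576 bases) were also longer than those of Mrpl53 and Mrpl54 (354 and 405).

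At the exit of the peptide tunnel, where nascent chains meet the inner membrane, all 6 members were higher in ELS than in Control, by 0.03 for Mrpl24 to 0.29 for Mrpl23, with Mrpl17 (0.10), Mrpl22 (0.13), Mrpl47 (0.05) and the membrane anchor Mrpl45 (0.06) between. In FST against Control they ran from -0.07 for Mrpl47 to 0.20 for Mrpl23. Of all genes 48.5% were higher in ELS than in Control and 48.3% in FST. Relative to genes of like coding length 3 of these 6 were higher in ELS (median -0.01) and 2 in FST. The central protuberance held the widest range of differences among these 3 sites. It also held the most genes (8, against 5 and 6), with coding sequences from 363 bases in Mrpl52 to 1140 in Mrpl38. Its members were Mrpl52 (0.37 for ELS against Control), Mrpl18 (0.24), Mrpl55 (0.24), Mrpl27 (0.19), Mrpl40 (0.09), Mrpl48 (0.09), Mrpl38 (0.07) and Mrpl46 (-0.07). Of the same 8 genes, 7 were higher in FST than in Control, with Mrpl18 at 0.29 and Mrpl46 at -0.16. Relative to genes of like coding length 4 of the 8 were higher in ELS and 3 in FST. There are 5 structural proteins of this ribosome in the table that carry other symbols and were not members. Aurkaip1 and Gadd45gip1 differed by 0.22 and 0.23 for ELS against Control, Chchd1 by 0.16, and Dap3 and Ptcd3, the last a pentatricopeptide repeat protein, by -0.06 and -0.12.

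The swim was accompanied by the opposite direction in mice with ELS. In ELS+FST against ELS, 66 of 78 members were lower (84.6%), where 49.2% of all genes were, with a median of -0.05, a linear ratio of 0.96. Relative to genes of like coding length 31 were higher (median -0.01). The differences were small: no member was past 0.25 in either direction, where 5.11% of all genes were over 0.25 higher and 1.96% over 0.25 lower. The lowest were Mrpl36 (-0.19), Mrpl55 (-0.18), Mrps21 (-0.16), Mrpl34 (-0.16) and Mrpl33 (-0.16). Mrpl36, the counterpart of bacterial L36, had 10.01 in ELS+FST, 10.07 in FST, 10.20 in ELS and 9.99 in Control, and Mrpl55 had 9.67 in ELS+FST, 9.68 in FST, 9.86 in ELS and 9.62 in Control. In both, ELS stood above the other 3 groups. The highest were Mrps31 (0.10), Mrps9 (0.09), Mrpl9 (0.08), Mrps5 (0.08) and Mrps27 (0.08), of which Mrps9, Mrpl9 and Mrps5 have bacterial counterparts.

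Among mice that had swum, members differed little by early life history. In ELS+FST against FST 54 of 78 were lower (69.2%), against 51.0% of all genes, with a median of -0.02. Relative to genes of like coding length 40 were higher (median 0.001). The sole member past 0.25 was Mrps27, at 0.25 higher, where 6.89% of all genes were over 0.25 higher and 2.60% over 0.25 lower. Mrps31 (0.22) and Mrpl22 (0.12) followed, and Mrpl34 (-0.20), Mrpl35 (-0.17) and Mrps12 (-0.16), whose bacterial counterpart S12 lies in the decoding centre, were at the other end. For Mrps31 the values were 9.38 in ELS+FST, 9.16 in FST, 9.29 in ELS and 9.28 in Control, and here FST was the low group as in Mrps27. In ELS+FST against Control 59 members were higher (75.6%), against 49.1% of all genes, with a median of 0.08. Relative to genes of like transcript length 38 were higher (median -0.004), and relative to those of like coding length 32 were (median -0.02), so that the median changed its sign. Mrpl52 alone was past 0.25 (0.25), where 11.3% of all genes were over 0.25 higher and 9.47% over 0.25 lower, followed by Mrps25 (0.24) and Mrps15 (0.23), and Mrpl3 was the lowest (-0.19).

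The difference between the swim effects, ELS+FST minus ELS less FST minus Control, was negative for 66 of 78 members (84.6%), where it was for 47.4% of all genes, with a median of -0.18. Relative to genes of like coding length it was positive for 42 members and the median changed its sign to 0.007, and relative to those of like transcript length it was positive for 32 (median -0.05). It was past 0.25 in the lower direction for 20 members and in the higher direction for Mrps27 (0.37) and Mrpl3 (0.27), where 16.2% and 19.3% of all genes were. Mrpl34 (-0.55), Mrpl52 (-0.50), Mrps21 (-0.49), Mrps36 (-0.44) and Mrps25 (-0.42) were the lowest. A positive swim difference without ELS together with a negative one with ELS was found in 56 members (71.8%), against 29.4% of all genes, and the reverse in 7. Over the 78 members both swim differences, which share no group value, had a Spearman rho of -0.50, beside -0.25 over all genes. The same genes are measured in both, and after the trend with coding length described next was subtracted rho was -0.10 over members and -0.13 over all genes.

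**Figure D3:**
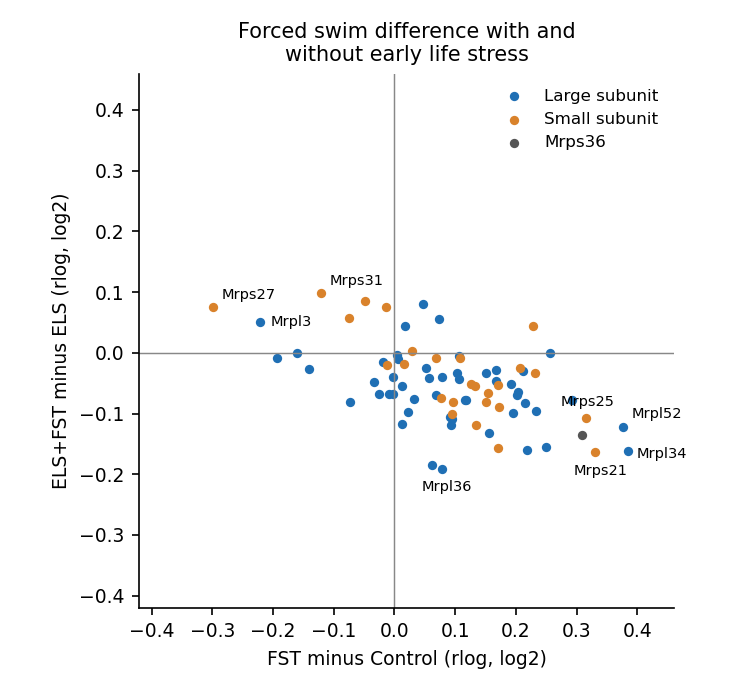
Difference of rlog values (log2) between ELS+FST and ELS (vertical axis) against that between FST and Control (horizontal axis), 1 point per member, blue for the large subunit, orange for the small one and grey for Mrps36. Both axes have the same scale, and 56 of the 78 points lie at the lower right, positive on the horizontal and negative on the vertical axis. Mrps27 (-0.30, 0.08) and Mrpl3 (-0.22, 0.05) are at the upper left.

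Across the groups, Control was the lowest in 52 members (66.7%), where it was in 35.0% of all genes, and the highest in 9 (11.5%, against 37.4%). ELS was the highest group in 41 members (52.6%, against 21.3% of all genes), FST in 23 (29.5%, against 21.6%) and ELS+FST in 5 (6.41%, against 19.7%). The ELS+FST value lay above Control and below ELS in 51 members (65.4%, against 23.6% of all genes) and below both single stresses in 50 (64.1%, against 35.7%). These shares of all genes were not matched for coding length, whose trend is described next. The members that varied least were Mrpl19, with 10.25 in ELS+FST, 10.27 in FST, 10.25 in ELS and 10.27 in Control, and Mrps23, whose group values lay within 0.03 of each other, both named after their values were seen.

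The size of the differences followed the length of the coding sequence, which ran from 261 bases in Mrps21 to 1326 in Mrps30 with a median of 582, against 1425 for all genes. In the 26 members with the shortest coding sequences (261 to 480 bases), 25 were higher in ELS than in Control with a median of 0.21. In the 26 of middle length (498 to 753 bases) all 26 were higher, with a median of 0.13, and in the 26 longest (756 to 1326 bases) 13 were, with a median of -0.002. For FST against Control the medians were 0.15, 0.11 and 0.0004 in that order, and for ELS+FST against ELS -0.10, -0.06 and -0.01. Spearman rho between the difference and coding length over the 78 members was -0.73 for ELS against Control, -0.63 for FST against Control and 0.73 for ELS+FST against ELS.

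All genes followed the same gradient. Among the 863 genes with coding sequences of 261 to 480 bases 91.3% were higher in ELS than in Control, with a median of 0.23, and 88.3% were higher in FST than in Control, with a median of 0.20. Among the 1570 genes of 498 to 753 bases 78.3% and 71.2% were, and among the 3711 genes of 756 to 1326 bases 55.4% and 52.6%, with medians of 0.12 and 0.02 for ELS in these ranges. Over 13975 genes rho with coding length was -0.50 for ELS, -0.43 for FST and 0.22 for ELS+FST against ELS. When the median of genes of like coding length was subtracted, 34 of 78 members were higher in ELS than in Control (median -0.01) and 33 in FST (median -0.02), and 31 were higher in ELS+FST than in ELS (median -0.01). The members thus lay about evenly on both sides of the trend of all genes. After it was subtracted Mrps25 had 0.19 for ELS and for FST against Control, Mrpl52 0.11 and 0.16, Mrps21 0.08 and 0.08, Mrps36 0.07 and 0.06, Mrpl34 0.06 and 0.14, Mrpl3 -0.26 and -0.25, Mrpl1 -0.16 and -0.23, and Mrps27 -0.13 and -0.28. Without a spread between libraries it cannot be said which of these remainders exceed the error.

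**Figure D4:**
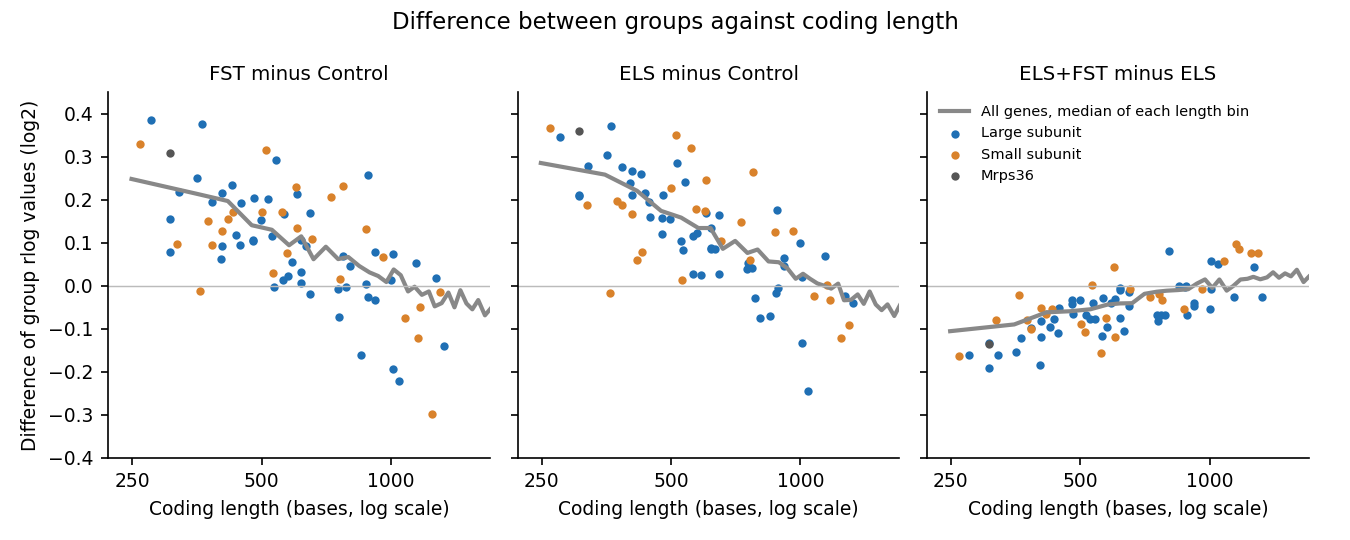
Difference of rlog values (log2, vertical axis) against coding length in bases (log scale, horizontal axis) for FST minus Control, ELS minus Control and ELS+FST minus ELS. Points are the 78 members (blue large subunit, orange small subunit, grey Mrps36) and the grey line joins the median differences of all genes in 50 bins of coding length. The line slopes down for FST and ELS against Control and up for ELS+FST against ELS, and the members scatter around it.

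Other genes of mitochondrial translation, whose coding sequences are longer (list medians from 1131 to 1656 bases), had lower medians than the members. With the coding length trend subtracted the medians for ELS and FST against Control were -0.05 and -0.05 for translation factors and -0.08 and -0.08 for the aminoacyl-tRNA synthetases. For assembly factors they were -0.007 and 0.011, and for mitochondrial DNA transcription and replication 0.026 and 0.010. Both of these lists then lay above the members (-0.012 and -0.024). The values that follow are before subtraction. Of 28 assembly factors of the mitochondrial ribosome 16 were higher in ELS than in Control (median 0.01) and 17 in FST (0.02), with Trmt61b, an rRNA and tRNA methyltransferase, at 0.25 in FST and the RNA helicase Dhx30 at -0.44 in ELS. Of 16 translation factors 6 and 5 were higher (medians -0.08 and -0.03). Slirp, an RNA-binding partner of Lrpprc, was the highest with 0.27 in ELS, and Taco1, a translational activator of cytochrome c oxidase subunit I, the lowest with -0.67 in ELS and -0.55 in FST. Taco1 had 7.69 in ELS+FST, 7.67 in FST, 7.56 in ELS and 8.22 in Control. Of the 17 mitochondrial aminoacyl-tRNA synthetases none was higher in ELS than in Control and Tars2 alone in FST (0.02), with medians of -0.14 in both. Lars2, which charges leucine, had 15.87 in ELS+FST, 14.79 in FST, 15.02 in ELS and 15.65 in Control, a swim difference of -0.86 without ELS and of 0.84 with it. Whether all reads counted for Lars2 came from its mRNA was not tested. Genes of mitochondrial DNA transcription and replication were higher in 5 of 11 for ELS (median -0.02) and in 3 of 11 for FST (-0.01), with Ssbp1, the single-stranded DNA-binding protein, at 0.20 and 0.21 and the polymerase Polrmt at -0.24 and -0.17.

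Families with coding sequences shorter than those of the members (medians of 453 bases for cytoplasmic ribosomal proteins and 411 for the respiratory chain) had larger medians. Of 80 cytoplasmic ribosomal protein genes all 80 were higher in ELS and 79 in FST than in Control, with medians of 0.34 and 0.31, and Rps29 had 11.65 in ELS+FST, 11.74 in FST, 11.70 in ELS and 11.20 in Control. With the coding length trend subtracted their medians were 0.16 and 0.15, so that in this family most genes stayed above others of like length (76 of 80 in both comparisons). Of 84 nuclear genes of the respiratory chain 71 and 69 were higher (medians 0.18 and 0.15), and after subtraction the medians were -0.01 and -0.03. Ndufs1, a core subunit of complex I with a long coding sequence, was the lowest in both (-0.31 and -0.24). No symbol of a mitochondrially encoded protein or rRNA was found among the genes, so these could not be analysed.

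**Figure D5:**
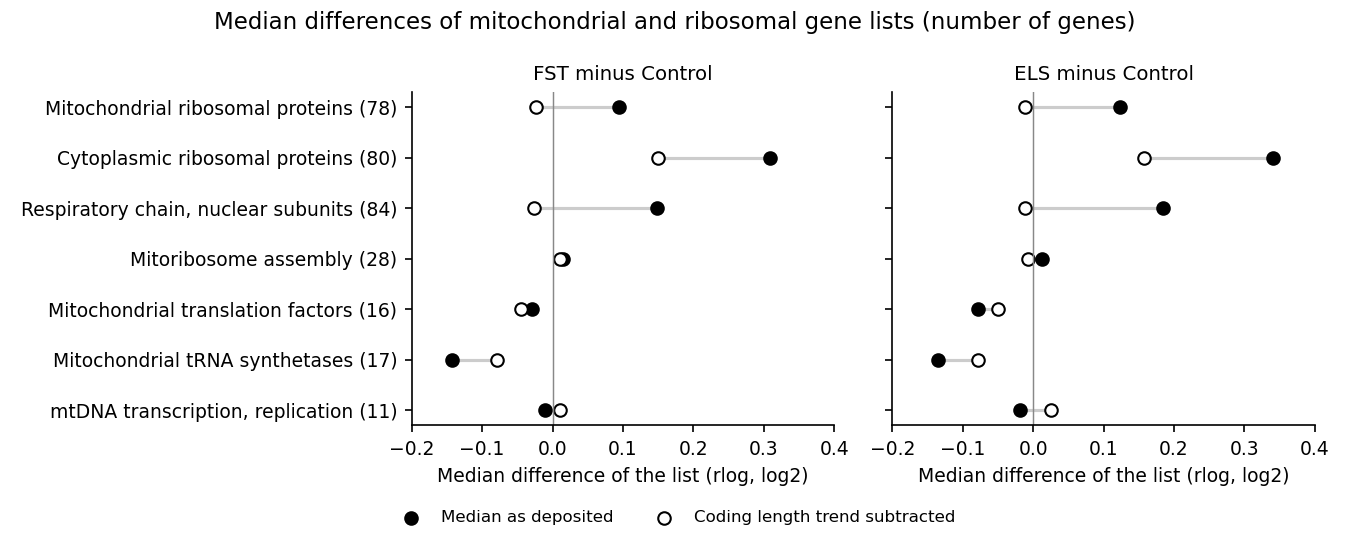
Median difference of rlog values (log2, horizontal axis) of 7 gene lists (vertical axis, number of genes in brackets) for FST minus Control (left) and ELS minus Control (right). Filled circles are the medians before any subtraction and open circles those after the coding length trend of all genes was subtracted. The open circle of the mitochondrial ribosomal proteins lies at -0.02 for FST and -0.01 for ELS, and that of the cytoplasmic ribosomal proteins at 0.15 and 0.16.

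Some members could not be separated fully from their neighbours, since the library kit does not mark strand. In GENCODE M21, exons of 33 members overlapped those of another gene, in 28 of them on the opposite strand and in 27 members by 100 bases or more. Mrps25 shared 3533 bases with Nr2c2, Mrpl19 shared 1962 bases with Gcfc2, and Mrpl46 and Mrps11 shared 173 bases with each other. By symbol, a search that misses copies annotated under other names, Mrpl23, Mrpl48 and Mrps36 have pseudogenes to which reads could have been assigned. Values of these genes are uncertain to that extent.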

How the data were processed

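TRAP RNA from the 4 groups was sequenced after TruSeq RNA v2 library preparation. The authors aligned reads to mm10 with Rsubread, quantified transcripts with Salmon, summarised them as gene counts through tximport and applied the rlog transformation of DESeq2. The deposited table holds rlog values on the log2 scale in 4 columns, 1 per group. How libraries were combined, how many entered each value, and whether the limma batch correction named for heatmaps and PCA was applied are not stated, and tool versions are not given in the sources used here. No column of per-sample values was present (0 left unused), so libraries could not be compared, and no SD, interval or test was computed.

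Of 20196 rows, 25 with symbols turned into dates were left out, and 14986 genes with a mean of at least 3 served as background. Differences of group values, counts past 0.25 and medians were computed for 6 comparisons. The members and lists were chosen with earlier results of these data known. Genes named are the 5 highest and 5 lowest members of each comparison and of the mean, all members of the stalk, exit tunnel and central protuberance, extremes of the other pathway lists and subunits with other symbols. Alternatives were sizes of 0.1 and 0.5, a mean of at least 6, no filter, centring, means, members by structure and subtraction of the trend with transcript length in 50 bins. Subtraction of the trend with coding length was chosen after seeing the data. Lengths, positions and overlaps came from GENCODE M21, with a coding length for 93.3% of the genes, and promoters from RefSeq. The length correction was tested on simulated data. Python 3.11.15 with numpy 2.4.6, pandas 2.3.3, scipy 1.17.1 and matplotlib 3.10.9 was used.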

Additional observations from a re-analysis of the deposited data

How the results depend on the processing

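Every difference rests on 1 value per group, and its error is unknown. No paired analysis was possible because each group has 1 value and no library values were given, and leaving out a library was not possible for the same reason. Centring on the median of all genes, a mean of at least 6, no filter on the mean and members chosen by structure left the counts within 1.5 times and the medians within 0.02 in all 6 comparisons. With the mean in place of the median the value for the difference of the swim effects moved by more, to -0.145, and the other 5 did not. Counts past a size depend on that size. At 0.1 they were 43 for FST against Control, 47 for ELS against Control, 17 for ELS+FST against ELS, 14 for ELS+FST against FST, 34 for ELS+FST against Control and 58 for the difference of the swim effects, and at 0.5 they were 0 in the first 5 and 1 in the last.

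Subtraction of length trends changed counts of members higher and medians. With the trend with transcript length subtracted, members past 0.25 numbered 5 for FST against Control, 7 for ELS against Control and 2 for ELS+FST against Control. The medians became 0.014 for FST, 0.033 for ELS, -0.031 for ELS+FST against ELS and -0.048 for the difference of the swim effects, and that for ELS+FST against Control reversed to -0.0036. Members higher numbered 43 for FST and 44 for ELS against Control, 23 for ELS+FST against ELS and 30 for ELS+FST against FST. They numbered 38 for ELS+FST against Control and 32 for the difference of the swim effects. With the trend with coding length subtracted, an alternative chosen after seeing the data, members higher numbered 33 for FST and 34 for ELS against Control, 31 for ELS+FST against ELS, 40 for ELS+FST against FST, 32 for ELS+FST against Control and 42 for the difference of the swim effects. Members past 0.25 numbered 1 for FST, 2 for ELS, 0 for ELS+FST against FST, 0 for ELS+FST against Control and 4 for the difference of the swim effects. The medians reversed to -0.024 for FST, -0.012 for ELS, -0.019 for ELS+FST against Control and 0.0072 for the difference of the swim effects, and that for ELS+FST against ELS was -0.012. Of the 60 values of named members, 46 moved with the transcript length trend and 44 with the coding length trend, and none changed its direction. These values were picked as the extremes of each comparison, so their kept directions say little about the other members. The cause of the trend was not tested.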
